A study of Homo sapiens with 6 samples.

Results

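Polycomb repressive complex 1 (PRC1) is read here through the messages of 9 of its subunits in SH-SY5Y cells, a cloned human neuroblastoma line derived from SK-N-SH. The members were chosen by gene name and were the chromodomain readers CBX2, CBX6, CBX7 and CBX8, the RING finger proteins RNF2 and RING1, and the PCGF proteins BMI1, PCGF3 and PCGF6. All 9 were found, each on a single row, among the 60612 genes of the deposited table. RNA was compared between 3 libraries from cells infected with a control vector, titled stuffer, and 3 libraries from cells infected for overexpression of the long noncoding RNA CDKN2B-AS1. No other genotype, drug or time point is given, and all 6 samples share the line and the infection. The column names carry the tag LVx1 for the control vector and LVx2 for the overexpression, and no label explains them, so handling that the tags may mark and the labelled treatment cannot be told apart. Replicates are numbered in the labels with nothing said of separate cultures, and p-values therefore reflect the spread of these libraries alone, which may be technical. Below, control vector libraries are called C1, C2 and C3 and those labelled overexpression O1, O2 and O3, by replicate.

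PRC1 is a chromatin complex that places ubiquitin on a lysine of histone H2A through a RING1 or RNF2 subunit paired with a PCGF protein. In canonical PRC1 a CBX protein binds trimethylated histone H3, the mark written by Polycomb repressive complex 2 (PRC2), and a PHC protein links complexes to each other. Variant PRC1 carries RYBP or YAF2 in place of CBX, and its PCGF subunit sets which other proteins join. BMI1 and CBX7 are known as repressors of CDKN2A, and CBX7 has been reported to bind CDKN2B-AS1 RNA.

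The libraries held 20466583 to 48996425 assigned fragments, recovered from the steps of the FPKM values (fragments scaled to gene length and to the library's total). Levels of CDKN2B-AS1 were 0.272, 0.288 and 0.191 FPKM in C1, C2 and C3 and 0.338, 0.304 and 0.353 FPKM in O1, O2 and O3. The groups did not overlap, but the ratio of the means was 1.33, and the exact two-sided permutation test gave p = 0.1, the smallest value that 3 libraries against 3 allow. The groups are therefore called by their labels below. Of 12 sympathetic neuroblastoma markers 11 were at 1 FPKM or more in all 6 libraries, and their summed level was 1233 to 1385 FPKM in C1 to C3 and 1310 to 1421 FPKM in O1 to O3. TH, the rate-limiting enzyme of catecholamine synthesis, was the exception, at 0 to 0.300 FPKM. DBH alone gave 489 to 671 FPKM of the summed level, which therefore says little of the other markers. GATA2 and GATA3 were higher without overlap in O1 to O3, STMN2 was lower without overlap, and the other markers of this list overlapped. Summed fibroblast and mesenchymal markers lay at 58.2 to 73.7 and 60.4 to 69.8 FPKM, with 7 of 10 at 1 FPKM or more throughout and PRRX1 listed at 0. Schwann and glial markers summed to 3.03 to 6.92 and 3.34 to 3.54 FPKM, mostly S100B, with FOXD3 listed at 0 throughout and SOX10 listed at 0 in the controls. Epithelial markers reached at most 0.979 and 1.22 FPKM, and immune markers at most 1.19 and 1.58 FPKM with 4 of 6 listed at 0. No marker of these lists passed the test described below.

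Of the 9 members, 8 reached 1 FPKM in at least 3 libraries and were tested, and CBX7 did not. The test was limma-trend, a moderated linear model on log2(FPKM + 0.5), fitted to 13984 genes with Benjamini-Hochberg adjustment, and fold changes are labelled overexpression minus control vector on that log2 scale, which understates changes of low genes. Of the tested members 0 passed an adjusted p of 0.05, where 1.14% of all tested genes passed, and limma-voom on the recovered fragments also called 0. At an unadjusted limma-trend p under 0.05 there was 1 member, PCGF3, against 17.7% of all tested genes, 10.4% higher and 7.34% lower. The groups did not overlap for 2 of the 8, PCGF3 and CBX6, both higher under the label overexpression, against 24.1% of all tested genes in either direction, 14.2% higher and 9.9% lower. Both shares of members lay near those of all tested genes. The median log2 fold change over the 8 was 0.24, with 7 above 0 and 1 below, and that of all tested genes was 0.05, with 56.8% above 0. Single libraries decided that median, which was -0.0051 without C2 and 0.44 without C1. RING1, at 0.01, RNF2 and BMI1 were among the 7 above 0, and without C2 they were at -0.24, -0.10 and -0.22. In these bulk samples fewer cells of a type and less RNA per cell cannot be told apart.

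**Figure D1:**
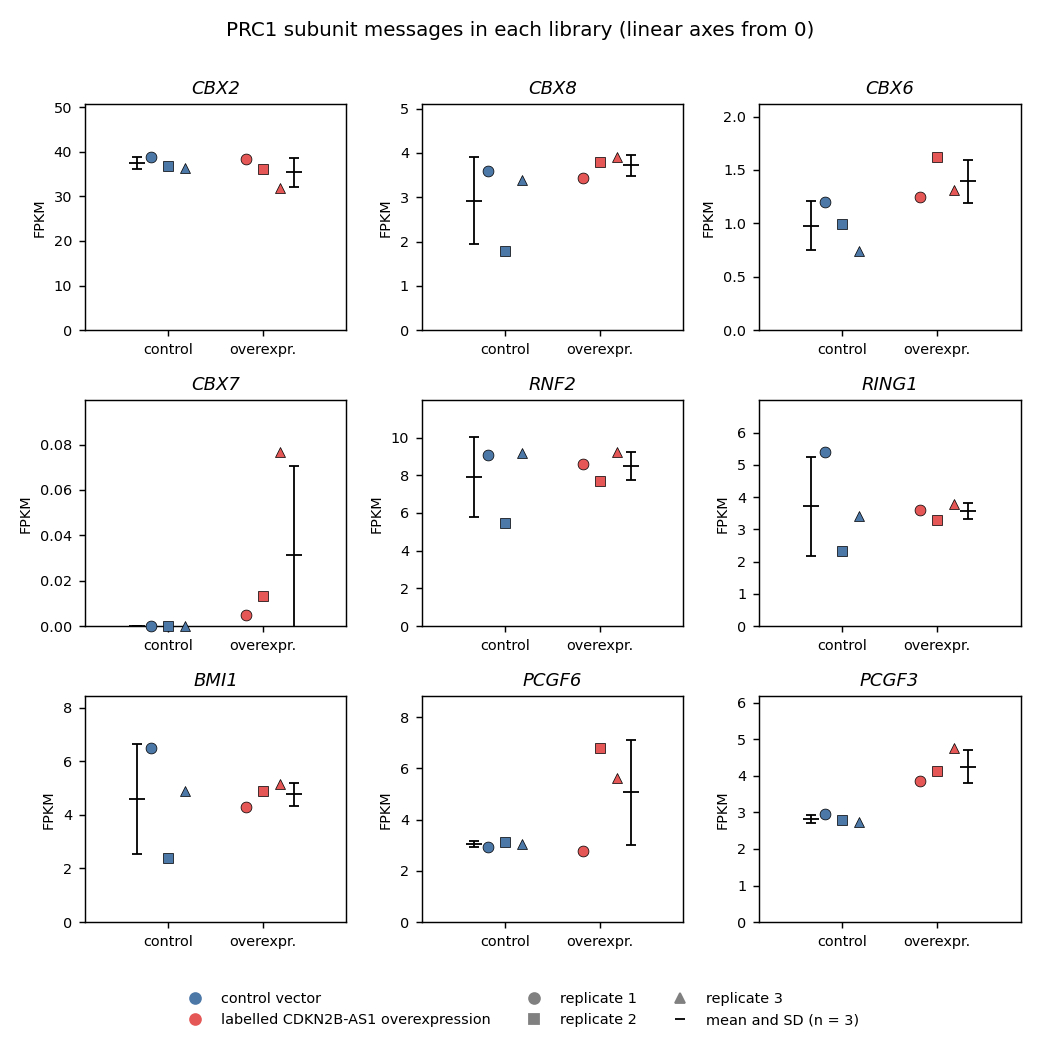
FPKM of each PRC1 member (vertical axes, linear, from 0) in the 3 control vector libraries (blue) and the 3 libraries labelled CDKN2B-AS1 overexpression (red), with the replicate given by the symbol and the mean and SD of each group in black. The lower SD bar of CBX7 is cut off at 0. PCGF3 and CBX6 are the tested members whose groups do not overlap, CBX7 is at 0 in every control vector library, and C2 is the lowest point for CBX8, RNF2, RING1 and BMI1.

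CBX2 was by far the most abundant of the CBX members. This chromodomain protein, which also compacts nucleosomes, is encoded on GRCh38 chromosome 17 (79778148 to 79787983, plus strand, ENSG00000173894). Its level was 38.9, 36.9 and 36.4 FPKM in C1, C2 and C3 and 38.3, 36.1 and 31.9 FPKM in O1, O2 and O3. The groups overlapped, and 5 libraries lay close together with O3 below them. Group means were 37.4 ± 1.34 and 35.4 ± 3.24 FPKM (SD, n = 3 each), resting on 4185 to 9962 fragments per library. CBX2 had a log2 fold change of -0.08 (SE 0.11, 95% interval -0.33 to 0.17), the narrowest interval of the members, with a limma-trend adjusted p of 0.753. Its sign turned, to 0.030, when libraries were rescaled to a common FPKM sum.

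CBX8 lies beside CBX2 on chromosome 17 (79792132 to 79801683, minus strand, ENSG00000141570), with 4148 bases and no other gene of the table wholly between them. It reads the same histone mark in canonical PRC1. The controls C1, C2 and C3 had 3.59, 1.79 and 3.38 FPKM and O1, O2 and O3 had 3.44, 3.79 and 3.92 FPKM. Only C2 stood away from the other 5 libraries. CBX8 had a log2 fold change of 0.35 (SE 0.25, limma-trend adjusted p = 0.50), and it was 0.08 without that library. The neighbours CBX2 and CBX8 thus differed in level, with means over the 6 libraries of 36.4 ± 2.47 and 3.32 ± 0.775 FPKM (SD, n = 6), and CBX2 was higher in every library.

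CBX6 and CBX7 lie 248 kb apart on the minus strand of chromosome 22, with 13 genes wholly between them. CBX6 (38861422 to 38872249, ENSG00000183741) encodes another reader of that mark. Its level was 1.196, 0.998 and 0.743 FPKM in C1, C2 and C3 and 1.25, 1.63 and 1.31 FPKM in O1, O2 and O3. The labelled overexpression libraries all lay above the controls, by only a small margin between C1 and O1. CBX6 passed the filter on low values through those libraries, with C1 the only control at 1 FPKM or more, so its place among non-overlapping genes is partly set by the filter. Group means of 0.979 ± 0.227 and 1.40 ± 0.202 FPKM (SD, n = 3 each) gave a ratio of 1.43, from 231.83 to 514 fragments per library. Its log2 fold change was 0.36 (SE 0.25, limma-trend adjusted p = 0.482), and on recovered fragments limma-voom gave 0.52 (limma-voom adjusted p = 0.336). With the trend of log2 values with gene length removed it was 0.22 (limma-trend adjusted p = 0.718).

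CBX7 (chromosome 22, 39120167 to 39152680, ENSG00000100307), the reader reported to bind CDKN2B-AS1, was listed at 0 in all 3 control vector libraries. A count of 0 allows up to 3 fragments, which here is 0.00891, 0.0138 and 0.00925 FPKM in C1, C2 and C3, for counting error only. O1, O2 and O3 had 1, 2 and 28 fragments, or 0.00487, 0.0131 and 0.0765 FPKM. So a single library carried nearly all the CBX7 signal, and O1 and O2 lay under their own limit of 0.0146 and 0.0196 FPKM. That library also had 5 fragments in RP4-742C19.13, a noncoding gene on the other strand that shares 1338 exon bases with CBX7 and was listed at 0 in the other 5. No fold is given for CBX7.

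The catalytic pair was led by RNF2. RNF2 (also RING1B, chromosome 1, 185045526 to 185102603, plus strand, ENSG00000121481) is the main H2A ubiquitin ligase of PRC1. It stood at 9.09, 5.48 and 9.17 FPKM in C1, C2 and C3 and at 8.60, 7.72 and 9.21 FPKM in O1, O2 and O3. The groups overlapped, and C2 was the lowest. The log2 fold change of RNF2 was 0.13 (SE 0.21, 95% interval -0.33 to 0.59, limma-trend adjusted p = 0.786), and -0.10 without that library.

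RING1 (RING1A, chromosome 6, 33208500 to 33212722, plus strand, ENSG00000204227) is its paralog with the same activity. Its levels were 5.38, 2.34 and 3.40 FPKM in C1, C2 and C3 and 3.61, 3.29 and 3.78 FPKM in O1, O2 and O3. The controls spread below and above the other group. For RING1 the log2 fold change was 0.01 (SE 0.26, 95% interval -0.57 to 0.60, limma-trend adjusted p = 0.988), from 122 to 440 fragments per library. Its sign was negative in 5 of the 17 alternatives, so no direction is given. RNF2 made up 62.8, 70.1 and 72.9% of the summed RNF2 and RING1 FPKM in C1, C2 and C3 and 70.5, 70.1 and 70.9% in O1, O2 and O3. The mean shares were 68.6 ± 5.22 and 70.5 ± 0.381% (SD, n = 3 each), with an exact two-sided permutation p of 0.7. The difference of 1.88 percentage points turned to -1.02 without C1.

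PCGF3 gave the clearest separation of the members. PCGF3 (chromosome 4, 705748 to 770640, plus strand, ENSG00000185619) is the partner of RNF2 in a variant complex, shared with PCGF5, that places H2A ubiquitin broadly over the genome. Its level was 2.95, 2.78 and 2.73 FPKM in C1, C2 and C3 and 3.87, 4.12 and 4.75 FPKM in O1, O2 and O3. The controls were tightly grouped and every labelled overexpression library was above them. Group means of 2.82 ± 0.114 and 4.25 ± 0.453 FPKM (SD, n = 3 each) gave a ratio of 1.51, from 600.33 to 1727.83 fragments per library. PCGF3 had a log2 fold change of 0.51 (SE 0.18, 95% interval 0.11 to 0.91, unadjusted p = 0.0179), and the limma-trend adjusted p was 0.189. It ran from 0.37, with the gene length trend removed (limma-trend adjusted p = 0.313), to 0.61, with a common FPKM sum (limma-trend adjusted p = 0.114), and passed in 0 of 17 alternatives. RP11-440L14.1, a noncoding gene on the other strand, shares 1514 bases, 20.4% of the PCGF3 exon length, and the sources used here do not say whether the authors counted by strand. It stood at 1.40, 1.37 and 1.77 FPKM in C1, C2 and C3 and at 1.98, 2.11 and 1.88 FPKM in O1, O2 and O3, so it too was higher without overlap, and fragments of the pair were not separable over the shared bases.

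PCGF6 had the largest log2 fold change of the tested members, with overlapping groups. PCGF6 (chromosome 10, 103302796 to 103351144, minus strand, ENSG00000156374) defines a variant complex with MGA, MAX, E2F6 and L3MBTL2. The controls C1, C2 and C3 had 2.94, 3.14 and 3.06 FPKM and O1, O2 and O3 had 2.78, 6.78 and 5.64 FPKM. O1 was the lowest of all 6 libraries, below the controls, while O2 and O3 were far above them. Group means were 3.05 ± 0.0991 and 5.07 ± 2.06 FPKM (SD, n = 3 each) and the log2 fold change was 0.57 (SE 0.28, limma-trend adjusted p = 0.319). Without O1 it was 0.91 (limma-trend adjusted p = 0.162), and without O2 it was 0.34 (limma-trend adjusted p = 0.682).

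Of all tested genes, those nearest to PCGF6 in profile were TUBA4A, VSNL1, SETD5, CLSPN and RP1-179P9.3, with root mean square differences of 0.11, 0.15, 0.15, 0.15 and 0.17 between centred log2(FPKM + 0.5) values over the 6 libraries. TUBA4A, an alpha tubulin, had 1.09, 1.41 and 1.25 FPKM in C1, C2 and C3 and 1.27, 2.96 and 2.14 FPKM in O1, O2 and O3. It shared with PCGF6 the high O2 and O3. O1 lay within the control range for TUBA4A and below it for PCGF6. CLSPN, a replication checkpoint mediator, had log2 fold change 0.68 (limma-trend adjusted p = 0.199), and was the only one of these 5 whose groups did not overlap.

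The direction of BMI1 depended on 1 library, and part of its exons is shared with a readthrough gene. BMI1 (PCGF4, chromosome 10, 22321099 to 22331484, plus strand, ENSG00000168283) is the classic PCGF subunit of canonical PRC1. Its level was 6.48, 2.39 and 4.88 FPKM in C1, C2 and C3 and 4.29, 4.88 and 5.14 FPKM in O1, O2 and O3. C1 and C2 were the highest and lowest of the 6 libraries, with the other group between them. The log2 fold change of BMI1 was 0.14 (SE 0.29, 95% interval -0.52 to 0.79, limma-trend adjusted p = 0.847), and it was -0.22 without C2.

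The table also lists COMMD3-BMI1 (chromosome 10, 22316388 to 22329542, ENSG00000269897), an annotated readthrough from the upstream gene COMMD3 into BMI1 on the same strand. Of its 1904 exon bases 1000 are also BMI1 exons, 904 are also COMMD3 exons and 0 are its own. The 1000 shared bases are 22.8% of the BMI1 length. COMMD3-BMI1 was listed at 35.0, 32.3 and 31.7 FPKM in C1, C2 and C3 and at 27.1, 21.9 and 26.5 FPKM in O1, O2 and O3. It was thus listed well above BMI1 in every library. It was lower without overlap in the labelled overexpression libraries, with a log2 fold change of -0.39 (SE 0.12, limma-trend adjusted p = 0.155). With 0 bases of its own, its fragments were not separable from those of BMI1 and COMMD3. The listed level is therefore no measure of a readthrough transcript. COMMD3, which encodes an endosomal trafficking protein, was also lower without overlap, at 25.3 ± 1.73 and 18.0 ± 2.51 FPKM (SD, n = 3 each), with a log2 fold change of -0.49 (limma-trend adjusted p = 0.124).

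Fragments of the locus were therefore also summed over merged exons, a choice made once the values were known. For BMI1 and COMMD3-BMI1 together the level was 18.0, 13.6 and 15.4 FPKM in C1, C2 and C3 and 13.3, 11.9 and 13.8 FPKM in O1, O2 and O3. The groups overlapped, since C2 lay below O3. The log2 fold change became -0.25 (SE 0.14, limma-trend adjusted p = 0.390), and with COMMD3 included -0.36 (SE 0.13, limma-trend adjusted p = 0.197). The latter sum did not overlap between the groups, at 23.4, 20.4 and 20.5 FPKM in C1, C2 and C3 and 17.6, 14.7 and 17.5 FPKM in O1, O2 and O3. These sums also hold COMMD3 exon bases that are not BMI1, 904 of them through COMMD3-BMI1 and the whole of COMMD3 in the second. Their negative sign is thus not that of BMI1 alone, and neither value passed.

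**Figure D2:**
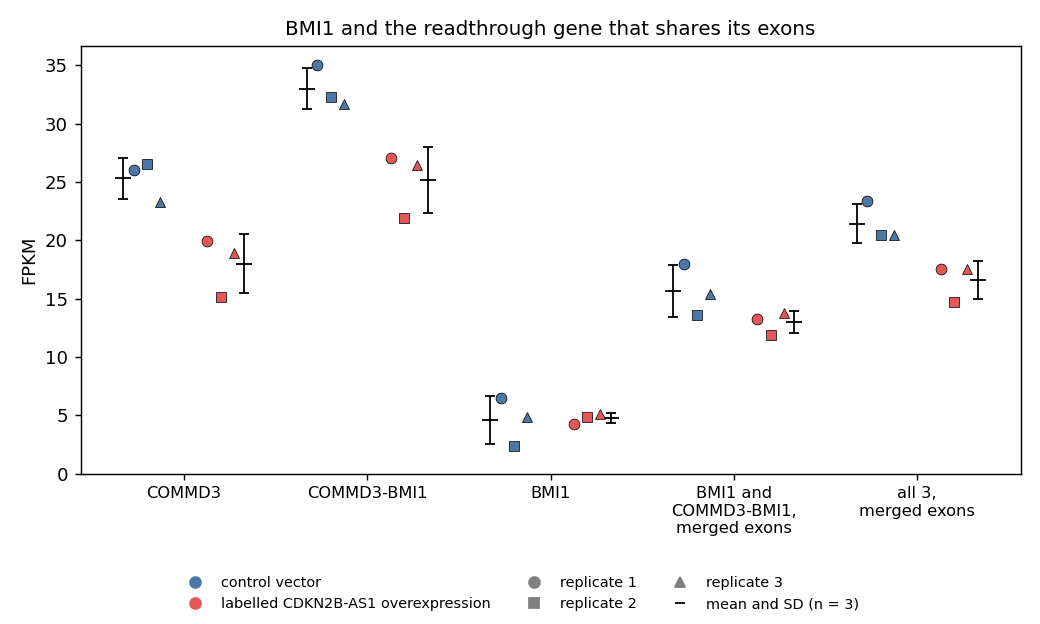
FPKM (vertical axis, linear, from 0) of COMMD3, the readthrough gene COMMD3-BMI1, BMI1, and their fragments summed over merged exons, in control vector (blue) and labelled overexpression (red) libraries, with mean and SD in black. COMMD3 and COMMD3-BMI1 are lower without overlap in the labelled overexpression libraries, while BMI1 alone spans 2.39 to 6.48 FPKM in the controls and 4.29 to 5.14 FPKM in the other group.

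The promoters of the members most at issue are shown so that the letters can be read beside the levels. RefSeq promoter windows (GRCh38.p14) were matched for 7 of the 9 members, in 8 windows with 2 for BMI1, and CBX2 and CBX8 had none. Motifs were searched in the 250 bases before each RefSeq start, and the printed run stops where the deposited table's gene begins. Capitals mark GGGCGG, the GC box bound by SP family factors, on either strand (CCGCCC on the other), and the palindrome CACGTG, the E-box bound by MYC, MAX and MGA. The 2 motifs overlap each other in 0 member windows, though neighbouring GC boxes may share letters. PCGF3 and CBX6 are shown as the tested members whose groups did not overlap, and CBX7 as the member at or near 0. BMI1, whose 2 windows both lie inside the readthrough gene, is shown by its first window. The printed runs are chr4:705582-705747 (plus), chr22:38872250-38872466 (minus), chr22:39152681-39152930 (minus) and chr10:22320849-22321098 (plus), written in the direction of the gene.
PCGF3: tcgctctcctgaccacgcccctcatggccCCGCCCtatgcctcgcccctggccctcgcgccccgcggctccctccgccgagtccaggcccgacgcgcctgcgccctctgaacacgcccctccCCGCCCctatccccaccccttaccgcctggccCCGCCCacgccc
CBX6: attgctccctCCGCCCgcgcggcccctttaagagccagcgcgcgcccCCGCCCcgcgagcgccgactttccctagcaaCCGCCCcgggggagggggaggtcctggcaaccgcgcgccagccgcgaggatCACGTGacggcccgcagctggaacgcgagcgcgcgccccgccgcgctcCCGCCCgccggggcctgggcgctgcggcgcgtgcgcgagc
CBX7: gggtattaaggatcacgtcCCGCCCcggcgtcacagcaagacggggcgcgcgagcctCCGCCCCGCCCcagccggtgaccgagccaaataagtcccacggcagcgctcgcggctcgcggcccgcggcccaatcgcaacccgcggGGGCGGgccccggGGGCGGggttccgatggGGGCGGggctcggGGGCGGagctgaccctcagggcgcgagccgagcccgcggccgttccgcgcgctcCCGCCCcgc
BMI1: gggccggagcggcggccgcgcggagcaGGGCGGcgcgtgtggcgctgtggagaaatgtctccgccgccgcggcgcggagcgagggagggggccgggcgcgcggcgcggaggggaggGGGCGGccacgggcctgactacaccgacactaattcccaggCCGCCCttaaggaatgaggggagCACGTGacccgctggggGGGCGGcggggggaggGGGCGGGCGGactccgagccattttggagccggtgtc

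The windows were GC-rich, at 78.8, 79.2, 78.8 and 76.8% G and C for PCGF3, CBX6, CBX7 and BMI1, against a median of 58% over 35116 promoter windows of the same length. Over the whole windows GC boxes numbered 3, 4, 8 and 6 in the same order, and 42.6% of all windows held at least 1. CBX7, the member listed at 0 in the controls, had the most, more than 99.4% of all windows. An E-box was found in the CBX6 and first BMI1 windows, 1 in each, and 6.34% of all windows held one. PCGF6, with the largest log2 fold change, held 0 of either motif and was the least GC-rich member window at 58.4%. These are matches of letters only.

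Within a library the paralogs can be compared per length and without regard to scaling between libraries. CBX2 made up 89.1, 93.0 and 89.8% of the summed FPKM of the 4 CBX members in C1, C2 and C3 and 89.1, 86.9 and 85.8% in O1, O2 and O3. The ranges overlapped (exact two-sided permutation p = 0.2). CBX8 took 7.02 ± 2.16 and 9.22 ± 1.26%, and CBX6 2.36 ± 0.471 and 3.45 ± 0.511% (SD, n = 3 each). The CBX6 shares did not overlap (exact two-sided permutation p = 0.1, the smallest possible). Together the 4 genes summed to 41.3 ± 2.15 FPKM over C1 to C3 and 40.6 ± 2.99 FPKM over O1 to O3 (SD, n = 3 each).

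Among the 6 PCGF paralogs the leading gene was no member of the chosen set. PCGF1, the subunit of the variant complex with KDM2B and BCOR, held 64.4 ± 7.39% of the summed PCGF FPKM over C1 to C3 and 58.1 ± 3.13% over O1 to O3 (SD, n = 3 each). The share of PCGF3 was 6.90, 5.69 and 7.14% in C1, C2 and C3 and 9.19, 8.60 and 10.1% in O1, O2 and O3. Of the 6 PCGF shares only this one did not overlap between the groups (exact two-sided permutation p = 0.1, the smallest possible). That rested on the paralogs in the sum, since with only BMI1, PCGF3 and PCGF6 summed the PCGF3 share gave an exact two-sided permutation p of 0.5. The difference in the BMI1 share was -0.52 percentage points over all 6 paralogs and -7.89 over those 3. BMI1 held 4.89 to 15.2% in the controls and 10.2 to 10.9% in the other group, and PCGF6 6.43 to 8.01 and 6.61 to 14.2%. All PCGF shares use the BMI1 row alone, without fragments listed under COMMD3-BMI1. The BMI1 share may therefore be understated and the other PCGF shares overstated. The summed PCGF level was 43.3 ± 5.34 and 45.7 ± 3.17 FPKM (SD, n = 3 each). In all, 15 shares in 4 families were compared, the PHC genes included, and with a smallest possible p of 0.1 none could pass.

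**Figure D3:**
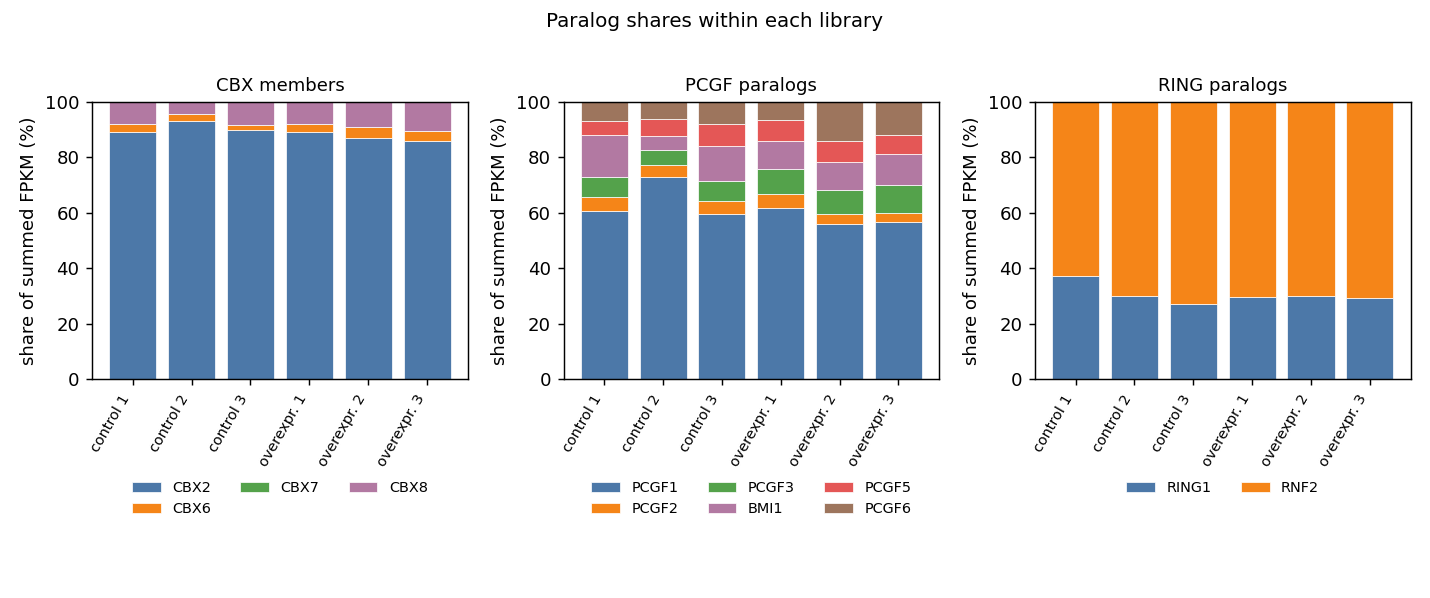
Share of each paralog in the summed FPKM of its family (vertical axes, percent) in each library, for the CBX members and the PCGF and RING genes. BMI1 is its own row, without fragments listed under COMMD3-BMI1. CBX2 takes 85.8 to 93.0% of the sum of the CBX members, PCGF1 56.1 to 72.9% of the PCGF sum and RNF2 62.8 to 72.9% of the RING sum, and the PCGF3 band is wider in every labelled overexpression library than in any control.

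Ordered by mean FPKM over the 6 libraries, the members ran CBX2 (36.4), RNF2 (8.21), BMI1 (4.68), PCGF6 (4.06), RING1 (3.63), PCGF3 (3.53), CBX8 (3.32), CBX6 (1.19) and CBX7 (0.0157). CBX2 lay above RNF2, CBX8 above CBX6 and CBX6 above CBX7 with no overlap of their ranges. RNF2 exceeded BMI1 in 6 of 6 libraries although their ranges overlapped. That rank uses the BMI1 row alone, without fragments listed under COMMD3-BMI1. Merged with that gene, which also holds COMMD3 bases, the level was 11.9 to 18.0 FPKM, against 5.48 to 9.21 FPKM for RNF2. The rank of BMI1 is therefore not settled. Among the 5 genes from BMI1 to CBX8 the ranges of neighbours overlapped, and each of the first 4 exceeded the next in only 2 to 4 of the 6 libraries. Their order also differed between the groups, with PCGF3 below CBX8 in the controls (2.82 and 2.92 FPKM) and above it in the other group (4.25 and 3.72 FPKM). FPKM is per merged exon length, so a gene with long, rarely used exons is understated.

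Spread was uneven between the groups. The coefficient of variation was 23.2 to 44.9% in the controls for CBX6, CBX8, BMI1, RNF2 and RING1 and 6.61 to 14.4% for the same genes in the labelled overexpression libraries. For the other 3 tested members the labelled overexpression libraries had the larger value, at 3.59 and 9.13% for CBX2, 4.05 and 10.7% for PCGF3 and 3.25 and 40.6% for PCGF6. C2 was the lowest library for 4 of the 8 tested members (CBX8, BMI1, RNF2 and RING1), where it was lowest for 21.2% of all tested genes. Its depth of 29048596 fragments lay between those of O1 and O3, and its FPKM summed over all genes was the highest of the 6, at 400215 against 349703 to 383712. The part of these differences in the members' values was not tested, beyond the values without that library given above.

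**Figure D4:**
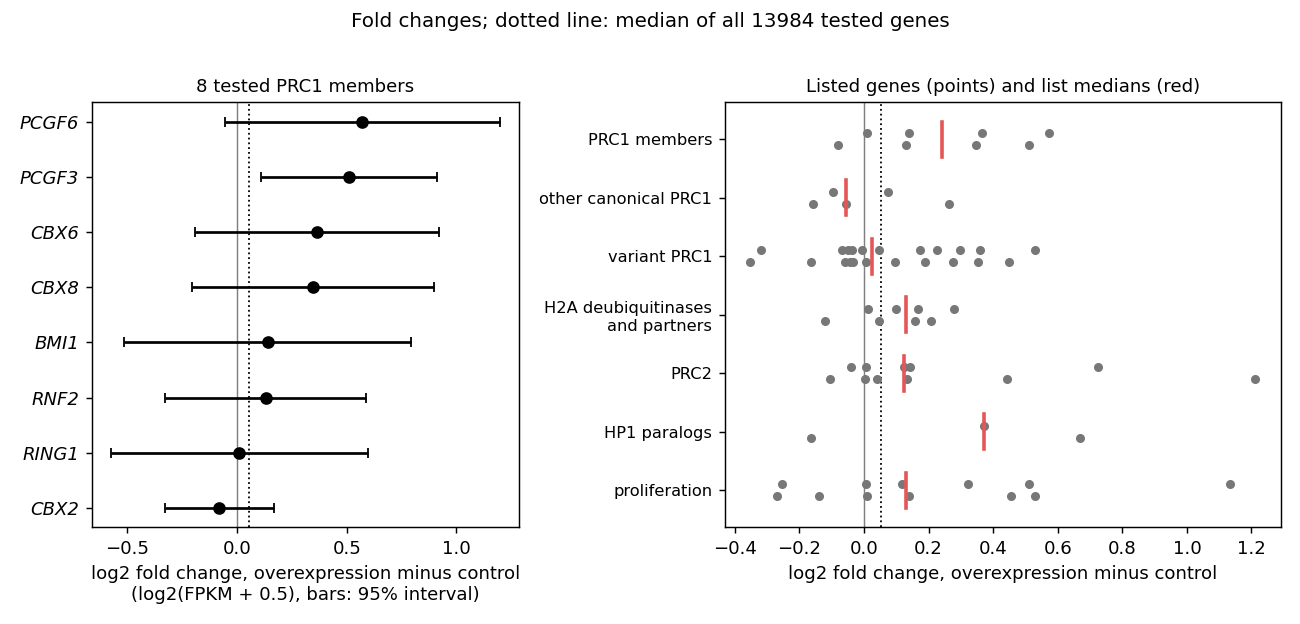
Left, log2 fold change of the 8 tested members with 95% intervals. Right, log2 fold changes of all tested genes in each list (points) with list medians (red). The dotted line is the median of all tested genes, 0.05. The interval of PCGF3, 0.11 to 0.91, is the only member interval that leaves out 0.

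The rest of the pathway passed the test nowhere. Of the other canonical subunits listed (PCGF2, PHC1, PHC2, PHC3, SCMH1, SCML2) 5 of 6 were tested and 0 passed. Their median log2 fold change was -0.06, and 0 had an unadjusted limma-trend p under 0.05, against 17.7% of all tested genes. SCML2, PCGF2 (the closest paralog of BMI1) and PHC1 had the smallest p, at 0.26, -0.16 and -0.06 on the log2 scale. PHC1, the leading Polyhomeotic gene, had 12.5 ± 0.661 and 12.0 ± 0.522 FPKM (SD, n = 3 each), while PHC3, below the filter and named after its values were seen, had 0.176 ± 0.0471 and 0.491 ± 0.185 FPKM. As shares of the summed PHC FPKM, PHC1 was lower without overlap, at 82.1 ± 1.19 and 79.0 ± 2.15%, and PHC3 higher without overlap, at 1.17 ± 0.368 and 3.21 ± 1.13% (SD, n = 3 each, exact two-sided permutation p = 0.1 for both).

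Of 26 listed subunits of variant PRC1, 22 were tested and 0 passed, with a median of 0.03. At an unadjusted limma-trend p under 0.05 there were 1 higher and 1 lower, against 10.4% and 7.34% of all tested genes. WDR5, a WD40 scaffold, had 14.2 ± 2.92 and 19.5 ± 3.41 FPKM (SD, n = 3 each) and a log2 fold change of 0.45 (limma-trend adjusted p = 0.242). Partners of PCGF6 lay on both sides. MAX had 13.1 ± 1.60 and 10.1 ± 1.21 FPKM and -0.35, and MGA 1.60 ± 0.518 and 2.48 ± 0.0482 FPKM and 0.53 (SD, n = 3 each), with limma-trend adjusted p of 0.272 and 0.283. E2F6 and L3MBTL2, named after their values were seen, had 0.01 and -0.07. PCGF5, the paralog of PCGF3, also named after its values were seen, had 2.25, 2.92 and 3.00 FPKM in C1, C2 and C3 and 3.14, 3.66 and 3.36 FPKM in O1, O2 and O3. It was higher without overlap, with a log2 fold change of 0.28 (SE 0.19, limma-trend adjusted p = 0.497). Of the 22 tested genes of the list 4 were higher and 1 lower without overlap, where 14.2% and 9.9% of all tested genes were. Neither count is read as a result about the list.

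The enzymes that remove H2A ubiquitin, with their partners, had 8 of 13 genes tested, 0 passing and a median of 0.13. An unadjusted limma-trend p under 0.05 was reached by 0 of them, against 17.7% of all tested genes. FOXK1, HCFC1 and OGT, partners of the deubiquitinase BAP1, had 0.28, 0.16 and 0.21. BAP1 itself, named after its values were seen, had 8.92 ± 0.657 and 8.15 ± 0.398 FPKM (SD, n = 3 each).

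PRC2, which writes the mark that CBX proteins read, had 11 of 12 subunits tested, 0 passing, 3 higher at an unadjusted limma-trend p under 0.05, where 10.4% of all tested genes were, and a median of 0.13. The 3 were EZH1, the less active methyltransferase, JARID2 and PHF19, accessory subunits, at 1.21, 0.72 and 0.44 (limma-trend adjusted p = 0.125, 0.154 and 0.276). EZH1 had 0.497 ± 0.285 and 1.83 ± 0.828 FPKM (SD, n = 3 each) and passed the filter only through O1 to O3, so its place in that count is partly set by the filter.

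Among the HP1 paralogs, CBX proteins that bind another methylated lysine of histone H3 and belong to heterochromatin, 2 of 3 tested, CBX1 and CBX5, were higher without overlap, against 14.2% of all tested genes. CBX5 (HP1 alpha) had 16.3, 20.5 and 21.6 FPKM in C1, C2 and C3 and 28.0, 33.2 and 32.03 FPKM in O1, O2 and O3. Its log2 fold change was 0.67 (SE 0.14), larger than that of any Polycomb CBX member tested, and its limma-trend adjusted p of 0.0564 just missed the threshold. CBX1 had 0.37 (limma-trend adjusted p = 0.155) and CBX3, which also joins the PCGF6 complex, had -0.16 (limma-trend adjusted p = 0.573). Whether HP1 and Polycomb readers differ in their change was not tested.

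Proliferation genes are given beside these values. Of 12 tested 1 passed as higher and 0 as lower, where 0.529% and 0.608% of all tested genes did. It was MKI67, a marker of cycling cells, at 6.10 ± 1.48 and 13.8 ± 0.923 FPKM and a log2 fold change of 1.13 (SD, n = 3 each, limma-trend adjusted p = 0.0332), and the median of the 12 was 0.13. At an unadjusted limma-trend p under 0.05 there were 4 higher and 1 lower, against 10.4% and 7.34% of all tested genes, and without overlap 5 higher and 1 lower, against 14.2% and 9.9%. No gene passed when C2, O1, O2 or O3 was left out, MKI67 included. The part of proliferation in the levels of PRC1 members was not tested. CDKN2A, known as a PRC1 target, stood at 6.99, 5.15 and 4.65 FPKM in C1, C2 and C3 and at 5.07, 4.52 and 3.66 FPKM in O1, O2 and O3. These overlapped, with a log2 fold change of -0.30 (limma-trend adjusted p = 0.476). CDKN2B, its neighbour, had at most 10.25 fragments in any library.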

How the data were processed

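RNA from 6 SH-SY5Y samples was made into libraries with a SMART-seq kit and read as paired ends, per the labels' protocols. Per the submitters' processing notes the tools were featureCounts 2.0.1 and STAR 2.7.9, and the builds hg38 and GRCh38.p13. Options and strand use are not given in the sources used here. The authors deposited FPKM per gene and library, with exon positions and gene lengths. Within a library, FPKM times gene length (in kilobases) came to 1e+06 over all genes. Up to 1000 fragments, 100% of values were multiples of 0.01 fragments (tolerance 0.001). Of all values above 0, 45.0 to 48.7% were whole. Depth was therefore recoverable, but fragments were fractional and no count model was the main test.

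Genes at 1 FPKM or more in at least 3 libraries (13984) entered limma-trend (limma 3.58.1, R 4.3.3), fitted to log2(FPKM + 0.5) without a block and Benjamini-Hochberg adjustment at 0.05. Shares were compared by exact permutation. A listed gene is not reported here and was left out of the lists and of the summed CBX level. The fit was tested on simulated data. Positions are those of the table (GRCh38), and the 9 members overlapped their GENCODE v29 positions. Named were all members, genes overlapping them where their values bear on a result, members of each other list that passed or otherwise the 3 of smallest p, the 5 genes nearest to the member of largest change, CDKN2B-AS1, CDKN2A and CDKN2B. The members and lists were chosen with earlier results of these data known. Alternatives were other pseudocounts, filters, scalings, variance models, a gene length correction, limma-voom, a replicate block and leaving out each library.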

Additional observations from a re-analysis of the deposited data

How the results depend on the processing

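No member passed in any of the alternatives run, 16 for CBX6, which the strictest filter removed, 17 for each other tested member and 2 more for BMI1. PCGF3, PCGF6, CBX6 and CBX8 kept a positive log2 fold change throughout, and with any 1 library left out PCGF3 ran from 0.44 to 0.57, PCGF6 from 0.34 to 0.91, CBX6 from 0.25 to 0.47 and CBX8 from 0.08 to 0.50. The median over the 8 tested members ran from -0.0051, without control vector replicate 2, to 0.44, without control vector replicate 1. Signs turned for CBX2 with a common FPKM sum (0.030), for RNF2 without control vector replicate 2 (its range with 1 library left out was -0.10 to 0.25), for BMI1 with that library left out (range -0.22 to 0.41) and with fragments summed over BMI1 and COMMD3-BMI1 (-0.25) or with COMMD3 as well (-0.36), and for RING1 with median-of-ratios factors (-0.045), with array weights (-0.022) and with 1 library left out (range -0.24 to 0.28); the cause was not tested. The sums for BMI1 also hold COMMD3 exon bases, so they do not give the sign of BMI1 alone. Over all genes 159 passed, 74 higher and 85 lower. The count was 0 without a filter and 0 without the trend (limma, with 3538 and 2304 genes at an unadjusted p under 0.05), 269 with FPKM of at least 1 in all 6 libraries, 265 with array weights, and 0 to 124 with 1 library left out, namely 3 and 0 without control vector replicates 1 and 2 and 0 without labelled overexpression replicate 1, 2 or 3 (1665 to 2304 at an unadjusted p under 0.05 where it was 0). A common FPKM sum moved the median of all tested genes from 0.05 to 0.15 and the split to 181 higher and 52 lower, median-of-ratios factors gave 55 and 132, the gene length correction 45 and 107, and limma-voom 79 and 48. The replicate block gave 229 calls, with 0 members, and an adjusted p of 0.201 for PCGF3 (limma-trend, Benjamini-Hochberg); same-numbered libraries correlated in their deviations at -0.02, 0.11 and 0.12, so the numbers were not taken as pairs, and not every library correlated best with its own number. The fewest fragments behind a tested member were the 122 to 440 of RING1, and CBX7 had 0 to 28.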
